A study of Fukomys damarensis and Heterocephalus glaber and Mus musculus with 160 samples.

Results

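Peaks of 3 histone marks were compared with each other in the heart of the naked mole-rat (Heterocephalus glaber). All 10 peak lists whose titles give this species, the heart and a histone mark were taken, out of 99 histone lists and 160 samples in the series: 4 of H3K4me3, 3 of H3K27ac and 3 of H3K4me1, with 681974 peaks in all. The hearts came from wild-type adult males aged 13 months (NMR30), 14 months (NMR31), 15 months (NMR35) and 17 months (NMR32 and NMR34). NMR31 and NMR32 had all 3 marks, NMR35 had H3K4me3 and H3K27ac, NMR34 had H3K4me3 and NMR30 had H3K4me1. The series measured heart and liver of this species, mouse, guinea pig and Damaraland mole-rat by chromatin immunoprecipitation and sequencing (ChIP-seq), in which an antibody pulls down crosslinked chromatin and regions with more reads than an input control are called as peaks. The 15 naked mole-rat liver lists of the same 3 marks (animals NMR30, NMR31, NMR32, NMR34 and NMR35) and the 15 Damaraland mole-rat heart lists (5 wild-type adult males, DMR1 to DMR4 and DMR11, aged 36 or 48 months) were used for comparison.

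The 3 marks are chemical groups on the tail of histone H3. H3K4me3, trimethylation of lysine 4, sits at the promoters where genes start. H3K27ac, acetylation of lysine 27, marks promoters and enhancers in use, and H3K4me1, monomethylation of lysine 4, marks enhancers and the flanks of promoters. Methylation of lysine 4 is stepwise, so a single histone tail cannot carry H3K4me3 and H3K4me1 at that residue at once. Each heart was diced whole, so marks on the same nucleosome and marks in different cells of the tissue cannot be told apart.

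H3K4me3 had the shortest list in each heart with more than 1 mark, with 27494 peaks in NMR31, 25868 in NMR32, 46044 in NMR34 and 55315 in NMR35. The H3K27ac lists held 93501 peaks in NMR31, 99435 in NMR32 and 116919 in NMR35. H3K4me1 varied most, from 42957 peaks in NMR32 through 63590 in NMR31 to 110851 in NMR30. Read depth was unknown. All 10 lists overlapped the heart lists of their mark more than the liver lists, by the mean Jaccard index (bases covered by both lists over bases covered by either), and for 5 of them every heart value lay above every liver value. The 3 H3K27ac lists stood furthest apart, with 0.511 to 0.520 against heart and 0.185 to 0.230 against liver. Marker genes of the heart were not analysed here.

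1 list stood apart before any comparison. The H3K4me3 list of NMR34 was called against the input of NMR32, per the file names, while the other 9 lists were called against the input of their own animal. Only 35.3% of its peaks reached a −log10 q of 4, against 66.1% to 96.2% in the other H3K4me3 lists, and its highest fold was 39.4 against 88.7 to 211. It was found in other H3K4me3 lists less often than they were in each other: 27.1% to 28.2% of its peaks overlapped them, and 21.7% to 45.2% of theirs overlapped it. NMR34 had no other mark here, so it enters only the widths and the comparisons between animals.

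**Figure D1:**
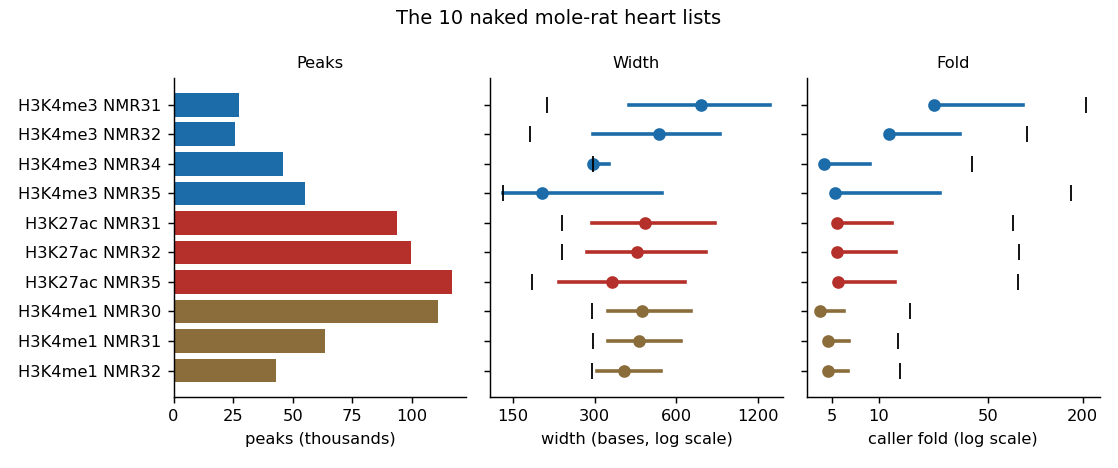
Number of peaks, peak width and caller fold of the 10 lists. In the width panel the point is the median, the line spans the middle of the list from the 25% to the 75% point and the black tick is the narrowest peak; in the fold panel the line runs from the median to the 90% point and the tick is the highest peak. H3K4me3 of NMR31 and NMR32 had the highest median folds (22.3 and 11.5), and all H3K4me1 lists stayed below a fold of 16.

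The highest folds were those of H3K4me3 peaks in NMR31, NMR32 and NMR35, and the H3K4me1 lists had the lowest maxima. The fold of a peak is the authors' value, its read pile over the local background. Its median in H3K4me3 was 22.3 in NMR31, 11.5 in NMR32, 4.47 in NMR34 and 5.25 in NMR35, while in H3K27ac it was 5.39, 5.35 and 5.45 in NMR31, NMR32 and NMR35. In H3K4me1 it was 4.20 in NMR30, 4.73 in NMR31 and 4.73 in NMR32. The upper ends separated the marks except for H3K4me3 of NMR34, which lay below H3K27ac: the 90% point of fold was 83.2, 32.8, 8.77 and 24.6 for H3K4me3, 12.2, 12.7 and 12.6 for H3K27ac, and 5.98, 6.41 and 6.30 for H3K4me1. Folds were not tested between lists, since each list has its own depth and input.

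Peak widths did not separate the marks over all lists. The median width of H3K4me3 was 740 bases in NMR31, 518 in NMR32, 295 in NMR34 and 191 in NMR35. In NMR34 the median was also the narrowest width in the list, and in NMR35 the 25% point was (138 bases). For H3K27ac it was 458, 429 and 348 bases in NMR31, NMR32 and NMR35, and for H3K4me1 449, 435 and 384 bases in NMR30, NMR31 and NMR32. The H3K4me3 lists therefore lay on both sides of all lists of the other marks. Within NMR31 and within NMR32, H3K4me3 had the widest median and H3K4me1 the narrowest, while in NMR35 H3K27ac was wider than H3K4me3. Mean log2 widths were 8.58 ± 0.86 for H3K4me3 (SD, n = 4), 8.68 ± 0.21 for H3K27ac (n = 3) and 8.72 ± 0.12 for H3K4me1 (n = 3). The 3 differences between marks, 0.09, 0.14 and −0.04 on the log2 scale, had raw p-values of 0.9143, 0.8 and 0.8 in two-sided exact permutation tests (adjusted p = 0.96, 0.884 and 0.884 over 21 comparisons within the heart). Within the libraries numbered vl in their titles (NMR31, NMR32 and NMR34) the first became −0.13, the second −0.24 and the third 0.12, and without NMR34 the first was −0.03 and the second 0.01. With every list reduced to its 25868 peaks of highest −log10 p the first was 1.04 (exact permutation p = 0.0571, the smallest that 3 against 4 allow, adjusted p = 0.583). The narrowest peak a list holds also differed, from 138 bases in the NMR35 H3K4me3 list to 296 bases in the NMR31 H3K4me1 list, and its part in the widths was not tested.

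H3K4me3 had the largest share of wide peaks in NMR31. There 37.0% of its peaks were at least 1000 bases wide, against 19.5% of H3K27ac and 7.48% of H3K4me1 peaks of the same heart. In NMR32 the shares were 19.3%, 17.6% and 3.59%, and in NMR35 10.7% for H3K4me3 and 13.2% for H3K27ac. Within a heart, H3K27ac held the widest single peaks, up to 22355 bases in NMR31, 23845 in NMR32 and 16795 in NMR35, against 9427, 7526 and 7303 bases for H3K4me3 and 7242 and 6267 bases for H3K4me1 in NMR31 and NMR32. The widest H3K4me1 peak, in NMR30, spanned 19050 bases.

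H3K4me3 peaks carried H3K27ac in most cases in NMR31 and NMR32 and in somewhat under 50% in NMR35, and few carried H3K4me1. A peak counted as carrying another mark when a peak of that mark in the same heart shared at least 50% of the shorter of the pair. H3K27ac overlapped 70.6% of H3K4me3 peaks in NMR31 (95% Wilson interval 70.05% to 71.1%), 77.9% in NMR32 (77.4% to 78.4%) and 47.7% in NMR35 (47.3% to 48.2%), a mean of 65.4% ± 15.7 (SD, n = 3). H3K4me1 overlapped 20.3% of them in NMR31 and 7.31% in NMR32, a mean of 13.8% ± 9.18 (n = 2). Every H3K27ac share lay above every H3K4me1 share, and the difference of 51.6 points had p = 0.2, the smallest that 3 against 2 values allow in a two-sided exact permutation test (adjusted p = 0.656). This test treats the values as separate, although the same H3K4me3 lists of NMR31 and NMR32 stand on both sides. The difference was 60.4 points within the vl libraries and 48.4 points when every list was reduced to its 25868 peaks of highest −log10 p.

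Seen from H3K27ac, the more numerous mark, the same overlaps were smaller and the other marks of the same heart took similar shares. H3K4me3 lay on 23.2% of H3K27ac peaks in NMR31, 19.1% in NMR32 and 21.6% in NMR35 (21.3% ± 2.02, n = 3). H3K4me1 lay on 26.9% in NMR31 and 17.6% in NMR32 (22.3% ± 6.56, n = 2). The longer H3K4me1 list of NMR30 lay on 37.8%, 36.6% and 36.2% of the H3K27ac peaks of NMR31, NMR32 and NMR35. The difference of −0.97 points was within the spread between animals (exact permutation p = 1, adjusted p = 1), and its sign turned with several settings, to 29.6 points with equal numbers of peaks.

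H3K4me1 peaks were found with H3K27ac about as often as without it, and seldom with H3K4me3. H3K27ac overlapped 45.5% of H3K4me1 peaks in NMR31 and 47.7% in NMR32 (46.6% ± 1.58, n = 2), and H3K4me3 overlapped 9.20% and 4.41% (6.81% ± 3.38, n = 2). The groups did not overlap, with a difference of 39.8 points (exact permutation p = 0.333, the smallest that 2 against 2 allow), which was 22.02 points with equal numbers of peaks. The 14 Wilson intervals of these shares spanned 0.389 to 1.08 points and cover counting error only, not the spread between hearts.

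The overlap rule treats both peaks of a pair alike, so the shares in the 2 directions rest on the same pairs of peaks, set against lists of different length. The number of peaks in these pairs also differed by direction, with 25157 H3K27ac and 28942 H3K4me1 peaks in NMR31. The part of list length in the differences between directions was not tested. The share of H3K4me3 with H3K27ac exceeded the share of H3K27ac with H3K4me3 by 44.1 points in the full lists (exact permutation p = 0.1, the smallest for 3 against 3) and by 3.63 points with equal numbers of peaks. The share of H3K27ac with H3K4me1 was 24.4 points below the reverse share, a difference of −24.37 points that shrank to −6.90 with equal numbers.

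Overlap with another mark of the same heart was not always larger than overlap with that mark in another heart. H3K4me3 peaks of NMR31 lay under H3K27ac peaks of NMR35 more often (80.1%) than under those of NMR31 (70.6%), and those of NMR32 did so at 84.0% against 77.9%. The H3K27ac list of NMR35 has the most peaks of the 3 but covers the fewest bases (66.1 Mb against 69.7 and 69.0), and the part of either was not tested. For the reverse, H3K4me1 peaks of NMR31 and NMR32 overlapped the H3K27ac of their own heart most, at 45.5% against 40.1% and 40.6%, and at 47.7% against 43.6% and 43.3%. Over all pairs of hearts, H3K27ac lists shared more of their peaks with each other (61.0% ± 1.91, 6 ordered pairs) than they had under either other mark. H3K4me1 lists shared only 19.5% to 57.0% of their peaks with each other, a range that includes the share of H3K4me1 peaks that carried H3K27ac.

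Many peaks without a second mark in their own heart had it in another. Of the 8086 H3K4me3 peaks of NMR31 without H3K27ac, 46.4% overlapped an H3K27ac peak of NMR32 or NMR35, and of the 5722 in NMR32 45.4% overlapped one of NMR31 or NMR35. With any of the 3 hearts counted, H3K27ac was found at 84.2% of all H3K4me3 peaks of NMR31 and 87.9% of those of NMR32. In NMR35 the same step found H3K27ac for 6.23% of 28905 peaks, which left its share at 51.0%. Of the H3K4me3 peaks without H3K4me1, 26.9% of 21914 in NMR31 and 18.9% of 23977 in NMR32 lay under H3K4me1 elsewhere, mostly in NMR30. This raised the share of H3K4me3 peaks with H3K4me1 from 20.3% to 41.7% in NMR31 and from 7.31% to 24.8% in NMR32. H3K27ac peaks without H3K4me3 almost never had it in another heart (2.74% in NMR31, 6.64% in NMR32 and 4.52% in NMR35, or 1.88%, 5.75% and 3.90% without the NMR34 list).

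Summits of H3K4me3 and H3K27ac lay close together, while H3K4me1 summits lay further out. A summit is the base of highest signal in a peak, as the authors' caller placed it. Between overlapping peaks, the median distance from an H3K4me3 summit to the nearest H3K27ac summit was 74 bases in NMR31, 77 in NMR32 and 79 in NMR35 (76.7 ± 2.52, n = 3). From H3K4me3 to H3K4me1 it was 457 bases in NMR31 and 299 in NMR32, and from H3K27ac to H3K4me1 207 and 199 bases. The 3 pairs of marks did not overlap in these medians. On the log2 scale the difference between the first and the second was −2.27 (exact permutation p = 0.2, the smallest possible), between the first and the third −1.41 (p = 0.2, the smallest possible) and between the third and the second −0.87 (exact p = 0.333, the smallest possible). The last moved to between −1.14 and −0.16 under the alternatives, and the other two stayed within −2.58 and −1.22.

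The tails of these distances differed in the same way. Of overlapping H3K4me3 and H3K27ac peaks, 58.3% in NMR31, 57.1% in NMR32 and 56.6% in NMR35 had summits within 100 bases, and 11.3% to 13.2% had them more than 500 bases apart. Of overlapping H3K4me3 and H3K4me1 peaks, 12.4% and 18.0% had summits within 100 bases, and 45.7% and 28.9% lay more than 500 bases apart. Overlap by itself bounds a distance, so distances over all peaks were also taken. The median from every H3K4me3 peak to the nearest H3K27ac summit was 177 bases in NMR31, 131 in NMR32 and 564 in NMR35, and to the nearest H3K4me1 summit 2694 bases in NMR31 and 6160 in NMR32.

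The centre of strong H3K4me3 peaks was nearly empty of H3K4me1 summits, which gathered to the sides. Among the 25% of H3K4me3 peaks with the highest fold in NMR31, 1.45 H3K4me1 summits per 1000 peaks fell within 100 bases of the H3K4me3 summit, and the count rose to a highest value of 59.9 per 1000 at 800 to 900 bases. In NMR32 it was 1.24 per 1000 in the first 100 bases and 37.3 per 1000 at 700 to 800 bases. The 25% of H3K4me3 peaks with the lowest fold showed the opposite order, with their highest H3K4me1 counts in the first 100 bases, at 56.4 per 1000 in NMR31 and 30.8 in NMR32. H3K27ac did not show this gap: the first 100 bases held its highest count in both classes, 633 and 641 per 1000 for the strongest H3K4me3 peaks of NMR31 and NMR32 and 161 and 195 for the weakest. Around strong H3K4me3 peaks H3K27ac also had a second, lower rise, at 114 per 1000 between 500 and 600 bases in NMR31 and 107 per 1000 between 600 and 700 bases in NMR32, with lower counts of 38.4 and 47.0 per 1000 at 200 to 300 bases.

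**Figure D2:**
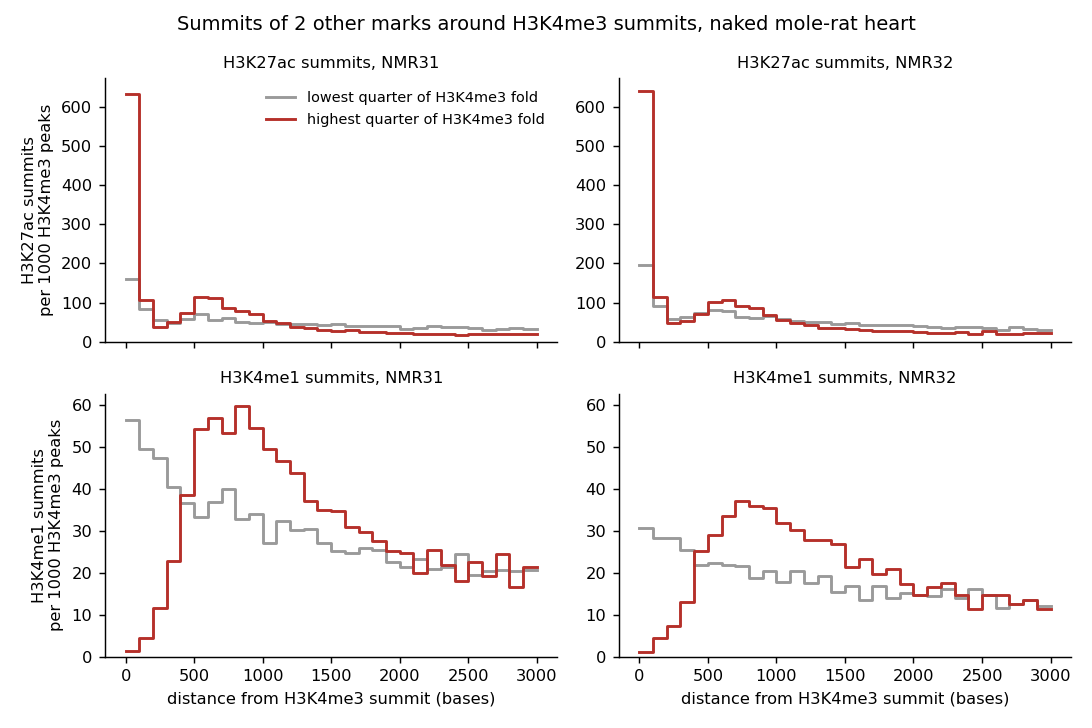
Summits of H3K27ac (upper panels) and H3K4me1 (lower panels) per 1000 H3K4me3 peaks, in steps of 100 bases of distance from the H3K4me3 summit, for the 25% of H3K4me3 peaks with the lowest fold (grey) and the highest fold (red) in NMR31 and NMR32. H3K27ac peaks in the first step in all panels, whereas H3K4me1 around the strongest H3K4me3 peaks starts at 1.45 and 1.24 per 1000 and is highest at 800 to 900 and 700 to 800 bases.

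Counted per peak, 13.0% of the weakest 25% of H3K4me3 peaks in NMR31 had an H3K4me1 summit within 250 bases, falling through 8.35% and 3.80% to 1.11% in the strongest 25%. In NMR32 the 4 classes had 7.38%, 4.64%, 2.26% and 0.866%. Peaks with no such central summit but 1 between 250 and 2000 bases away on at least 1 side went the other way, from 29.7% to 52.9% in NMR31 and from 22.4% to 37.3% in NMR32. H3K4me1 on both sides was rarer, at 10.2% of the strongest peaks in NMR31 and 4.86% in NMR32. The strongest class was also the widest, with a median width of 1519 bases in NMR31 and 984 in NMR32 against 296 and 228 in the weakest, and the part of width in the gap was not tested.

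The same arrangement was seen with H3K4me1 lists of other hearts. Over 12 pairs of an H3K4me3 and an H3K4me1 list, side summits were more frequent in the strongest class in 12 of 12, and central summits less frequent in 9 of 12. The 3 exceptions all used the NMR34 H3K4me3 list, where the central share was low in every class (1.20% to 2.25% in the weakest and 1.59% to 3.41% in the strongest). Without it the count was 9 of 9. With the longest H3K4me1 list, that of NMR30, 20.0% of the weakest and 1.54% of the strongest H3K4me3 peaks of NMR31 had a central summit, and 70.8% of the strongest had one to the side. The pairs share lists and are not independent.

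H3K4me3 peaks with H3K27ac were stronger than those without. Their median fold was 34.9 against 9.31 in NMR31, 14.7 against 6.01 in NMR32 and 12.01 against 4.20 in NMR35, which is 1.91, 1.29 and 1.51 on the log2 scale (mean 1.57 ± 0.31, n = 3, higher in 3 of 3). With 3 animals the two-sided exact sign-flip test cannot go below p = 0.25, the value found (adjusted p = 0.656). They were also wider, at 970 against 411 bases in NMR31, 626 against 272 in NMR32 and 541 against 138 in NMR35. The value of 138 bases is the narrowest width that the NMR35 list holds. The share with H3K27ac climbed with fold, from 45.6%, 44.7% and 13.3% in the lowest 10% of H3K4me3 folds of NMR31, NMR32 and NMR35 to 99.1%, 99.6% and 99.5% in the highest 10%. At the weakest peaks NMR35 lay below the other 2 hearts, and at the strongest all 3 were near 100%, where a difference has no room to show.

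H3K27ac peaks with H3K4me3 were stronger as well. Median folds were 8.77 against 5.07 in NMR31, 10.2 against 4.98 in NMR32 and 9.70 against 5.07 in NMR35, or 0.79, 1.04 and 0.93 on the log2 scale (0.92 ± 0.12, n = 3, higher in 3 of 3, exact sign-flip p = 0.25, the smallest possible). The rise was concentrated at the top: the share with H3K4me3 was 7.64%, 4.44% and 7.37% in the lowest 10% of H3K27ac folds, 13.2%, 7.75% and 9.51% in the fifth 10%, and 71.4%, 72.3% and 75.8% in the highest. With equal numbers of peaks, which keeps only the strongest H3K27ac peaks, the difference fell to 0.42.

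H3K4me1 divided H3K27ac and H3K4me3 peaks less. H3K27ac peaks with H3K4me1 had a median fold of 6.47 against 5.12 in NMR31 and 6.87 against 5.11 in NMR32 (0.34 and 0.43 on the log2 scale). Asking instead that the H3K27ac summit lie inside the H3K4me1 peak left 0.12 and 0.14, and equal numbers of peaks left a mean of 0.12. H3K4me1 peaks themselves varied little, by 0.14 and 0.15 with H3K27ac and by 0.06 and 0.10 with H3K4me3, and the sign-flip test for 2 animals cannot go below p = 0.5 (exact). Their share with H3K27ac still climbed with fold, from 36.1% and 38.9% in the lowest 10% of H3K4me1 folds to 72.8% and 71.1% in the highest in NMR31 and NMR32.

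For H3K4me3 with H3K4me1 the answer turned on how overlap was defined. By shared length, H3K4me3 peaks with H3K4me1 were stronger, with a median fold of 34.9 against 20.1 in NMR31 and 12.5 against 11.5 in NMR32 (0.80 and 0.12 on the log2 scale, mean 0.46 ± 0.48, n = 2, exact sign-flip p = 0.5, the smallest possible). When the H3K4me3 summit had to lie inside an H3K4me1 peak, they were weaker, at 8.27 against 24.3 in NMR31 and 6.05 against 11.9 in NMR32 (−1.55 and −0.98, mean −1.27). Only 33.5% of the overlapping H3K4me3 peaks in NMR31 and 42.5% in NMR32 had their summit inside the H3K4me1 peak, against 95.4% and 96.8% for H3K27ac. Along the range of fold, the share with the summit inside fell from 16.8% to 0.40% in NMR31 and from 7.27% to 0.27% in NMR32, while the share by length went from 18.9% to 35.5% and from 8.00% to 9.59%.

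**Figure D3:**
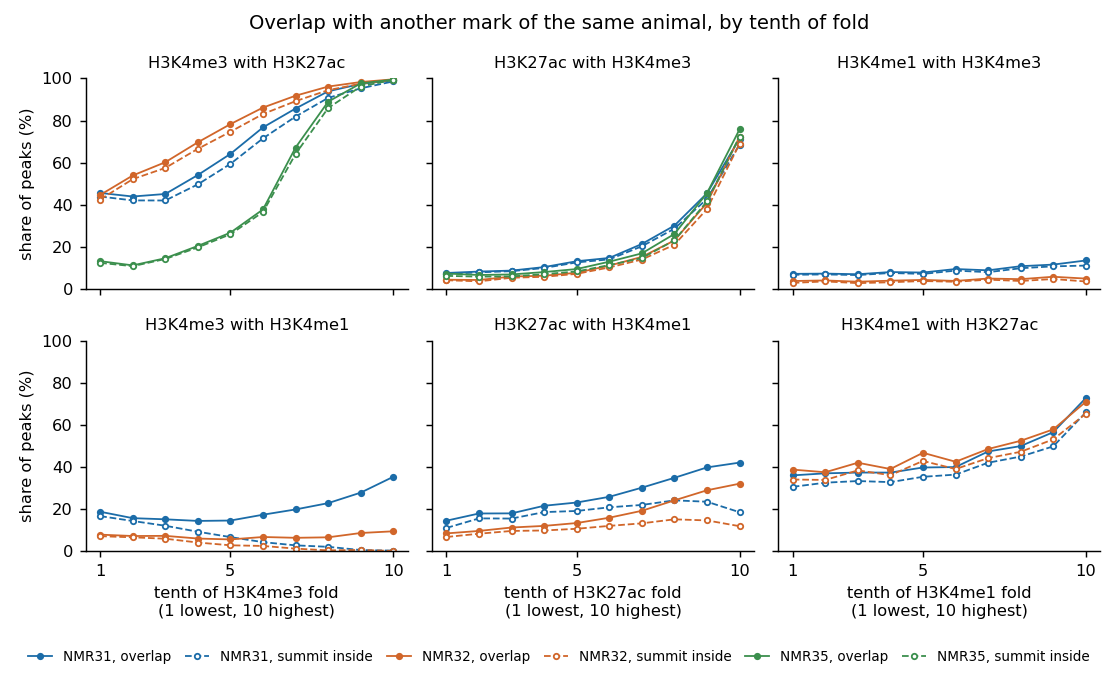
Share of peaks overlapped by another mark of the same heart, in 10 classes of equal size by the peak's own fold, from the lowest to the highest. Solid lines and filled points use overlap of 50% of the shorter peak, and dashed lines with open points ask that the summit lie inside the other peak. H3K4me3 reaches 99.1% to 99.6% with H3K27ac in the highest class of all 3 hearts, and the solid and dashed lines of H3K4me3 with H3K4me1 part, ending at 35.5% and 0.40% in NMR31.

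The same split was seen by width. H3K4me3 peaks under 500 bases carried H3K4me1 by length in 13.7% of cases in NMR31 and had their summit inside it in 12.6%, while peaks of 2000 bases or more gave 36.5% and 1.29%. In NMR32 the narrow class gave 5.77% and 5.14% and the wide class 11.6% and 0.32%. For H3K27ac both measures rose together, from 46.1% and 45.1% in the narrow to 97.9% and 93.9% in the wide class of NMR31. Wide H3K27ac peaks often held H3K4me1: of those of 2000 bases or more, 71.5% in NMR31 and 60.4% in NMR32 did, with 1.50 and 1.20 H3K4me1 peaks per H3K27ac peak, against 17.4% and 10.2% of those under 500 bases. Their share with H3K4me3 levelled off instead, at 40.3% and 40.4% in the classes from 1000 to 2000 bases and above in NMR31 and at 40.04% and 39.2% in NMR32.

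In NMR31 and NMR32, where all 3 marks were measured, peaks with all 3 had the highest median fold and width of H3K27ac peaks. For H3K4me3 this held for width in both hearts and for fold in NMR31, while in NMR32 the median fold of peaks with 3 marks equalled that of peaks with H3K27ac only. Of the H3K4me3 peaks, 25.8% were alone in NMR31 and 21.1% in NMR32, 53.9% and 71.6% had H3K27ac only, 3.57% and 1.02% had H3K4me1 only and 16.7% and 6.29% had both. Of the H3K27ac peaks, 54.6% and 65.8% were alone, 18.5% and 16.6% had H3K4me3 only, 22.3% and 15.0% had H3K4me1 only and 4.61% and 2.59% had both. Of the H3K4me1 peaks, 50.5% and 51.0% were alone, 40.3% and 44.6% had H3K27ac only, 3.98% and 1.24% had H3K4me3 only and 5.22% and 3.17% had both.

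Median fold of H3K4me3 peaks went from 9.22 with 1 mark to 30.4 with 2 and 44.2 with 3 in NMR31, and from 6.05 to 14.6 and 14.7 in NMR32. Peaks with 2 marks differed by which second mark they had: with H3K27ac only the median was 32.5 and 14.7, and with H3K4me1 only 10.0 and 5.77, close to the folds of peaks alone. H3K27ac peaks went from 4.86 through 6.72 to 11.6 in NMR31 and from 4.81 through 7.75 to 14.0 in NMR32, with 8.19 and 9.71 for those with H3K4me3 only and 6.02 and 6.42 for those with H3K4me1 only. H3K4me1 peaks stayed between 4.47 and 5.08 whatever they carried.

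From 1 mark to 3 marks, fold changed by 2.26 and 1.28 on the log2 scale for H3K4me3 (mean 1.77 ± 0.69, n = 2), by 1.26 and 1.54 for H3K27ac (1.40 ± 0.20) and by 0.14 and 0.15 for H3K4me1 (0.14 ± 0.01). Each was higher in 2 of 2 hearts, and the exact sign-flip test gave p = 0.5, the smallest for 2 animals. When summits had to lie inside the other peaks, the H3K4me3 value became −0.11 and the H3K27ac value 0.68. The H3K27ac value was 0.78 with equal numbers of peaks, and the H3K4me1 value fell to 0.03 once only peaks reaching a −log10 q of 4 were kept. Widths followed fold: H3K4me3 went from 400 through 872 to 1230 bases in NMR31 and from 271 through 612 to 733 in NMR32, and H3K27ac from 362 through 630 to 1345 and from 354 through 689 to 1505. H3K4me1 peaks with 3 marks were narrower (472 and 395 bases) than those with 2 (504 and 433). A wider peak has more room to overlap another, and this was not separated from fold.

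**Figure D4:**
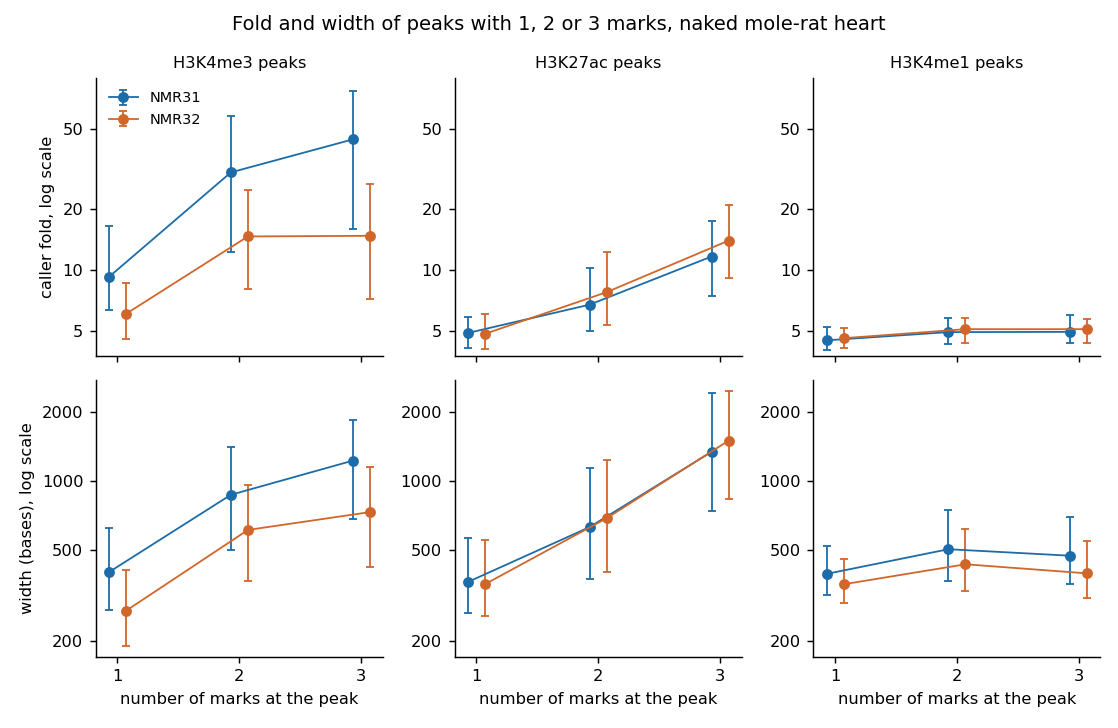
Caller fold (upper panels) and width (lower panels) of peaks with 1, 2 or 3 marks in NMR31 and NMR32, on log axes. Points are medians and bars run from the 25% to the 75% point over peaks of 1 list, so they show the spread of peaks and not the error between animals. Fold and width of H3K27ac climb at each step (4.86, 6.72 and 11.6 in NMR31), while H3K4me1 stays between 4.47 and 5.08.

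Merging the peaks of the 3 marks into regions gave 121289 regions in NMR31 and 119658 in NMR32. A region with 3 marks need not hold an H3K4me3 peak that carries both other marks by the overlap rule above. All 3 marks were in 6973 regions of NMR31 and 3794 of NMR32. Only 4599 and 1628 H3K4me3 peaks, 4310 and 2577 H3K27ac peaks and 3317 and 1362 H3K4me1 peaks carried both others. Regions with H3K27ac only were the largest class, 38.6% of regions in NMR31 and 51.6% in NMR32, followed by H3K4me1 only (22.8% and 15.4%), H3K27ac with H3K4me1 (17.1% and 13.4%) and H3K4me3 with H3K27ac (9.55% and 11.9%). Regions with all 3 marks made up 5.75% and 3.17% of regions but 16.1% and 9.23% of the covered bases, with median widths of 1844 and 1588 bases. H3K4me3 with H3K4me1 and no H3K27ac was the smallest class, with 1118 regions (0.922%) and 343 (0.287%).

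The classes differed in how well a second heart matched them. Regions of NMR32 with H3K4me3 and H3K27ac overlapped some region in NMR31 in 99.5% of cases, and in the reverse direction in 96.2%. They kept the same set of marks in 62.4% and 70.9%. Regions with all 3 marks kept the set in 62.1% going from NMR32 to NMR31 and in 32.8% in reverse, and 49.3% of the NMR31 regions with 3 marks had H3K4me3 and H3K27ac without H3K4me1 in NMR32, whose H3K4me1 list is shorter. H3K4me1 alone was matched least, with any region in 20.5% of cases from NMR31 and 32.0% from NMR32, against 49.7% and 54.3% for H3K27ac alone. H3K4me3 alone was matched in 56.7% from NMR31 and 84.8% from NMR32, and became H3K4me3 with H3K27ac in 14.3% and 21.3%.

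Regions are named by their positions in HetGla_1.0, counted from 1. The 3 of each class with the highest score were taken, the score being the lowest, over both hearts and the marks of the class, of the highest fold in the region. Genes at these positions were not analysed here. Their folds chose them and are given as a description with no test.

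Among 1532 regions that had all 3 marks in both hearts and lay on scaffolds with peaks reaching 1 Mb, the highest score belonged to JH167515.1:1192942-1205229. This region of 12288 bases had H3K4me3 folds of 13.1 in NMR31, 11.9 in NMR32 and 7.95 in NMR35 and no H3K4me3 peak in NMR34. Its H3K27ac folds were 26.3, 27.7 and 30.4 in NMR31, NMR32 and NMR35, and its H3K4me1 folds 9.06, 9.41 and 11.3 in NMR30, NMR31 and NMR32, spread over 5, 7 and 9 separate H3K4me1 peaks. JH169003.1:710997-717833 and JH166592.1:606432-615831 followed, with H3K4me3 folds up to 71.2 and 126 in NMR31. All 3 regions held a peak in 15 of the 15 liver lists.

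Of the 5505 regions with H3K4me3 and H3K27ac, the 3 with the highest scores were 495, 1452 and 615 bases wide. JH169323.1:291523-292017 had H3K4me3 folds of 84.9, 51.3, 19.1 and 62.2 in NMR31, NMR32, NMR34 and NMR35, H3K27ac folds of 46.5, 46.7 and 56.5, and no H3K4me1 peak in any of the 3 lists. JH169788.1:1222854-1223468 had no H3K4me1 either, and JH170405.1:3223080-3224531 had it only in NMR30, at a fold of 4.13. They held peaks in 10, 10 and 14 of the 15 liver lists. Of the 5706 regions with H3K27ac and H3K4me1, JH168132.1:778248-784898 led, with H3K27ac folds of 32.8, 39.4 and 23.5, H3K4me1 folds of 10.3, 10.2 and 10.2 and no H3K4me3 peak in 4 lists. It held a peak in 11 liver lists.

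Over all eligible regions, H3K27ac alone was the class with the largest share lacking any liver peak: 44.1% of its 12746 regions held no peak of the 15 liver lists, against 30.9% of the 2193 with H3K4me1 only, 13.6% with H3K27ac and H3K4me1, and 0.718% with all 3 marks. The median number of liver lists with a peak was 1 for H3K27ac only, 2 for H3K4me1 only and 15 for all 3 marks. The classes also differed in width, with medians of 730, 626 and 2325 bases for these 3. Regions with H3K4me3 only had a median of 556 bases, and 5.32% lacked a liver peak. With H3K4me3 and H3K27ac the values were 1257 bases and 1.76%, and with H3K4me3 and H3K4me1 972 bases and 0%. The part of width was not tested. The liver lists include the NMR30 H3K4me3 list of 253457 peaks. JH172853.1:1641493-1643374 had H3K27ac folds of 24.5, 27.7 and 23.2, and a weak H3K4me1 peak in NMR30 at 4.01. JH169933.1:461827-463668 had 25.3, 22.4 and 22.5 and no other mark in any heart list. Neither of these held a liver peak of any mark, and JH168247.1:946578-949514, with 21.9, 20.7 and 14.6, held one in 1. The 3 regions with H3K4me1 only had H3K4me1 folds between 3.49 and 9.03 over the 3 hearts, and were found in 7, 10 and 11 liver lists. The leading one, JH172442.1:1493295-1494069, had 5.52, 7.74 and 7.82 in NMR30, NMR31 and NMR32, and an H3K27ac peak of 4.82 in NMR35. The next, JH173139.1:2611872-2612604, had an NMR35 H3K27ac peak of 3.20, and JH168132.1:881543-882698 had none.

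Some regions without H3K27ac in NMR31 and NMR32 had it in NMR35: 640 of 1428 with H3K4me3 only (44.8%), 18 of 38 with H3K4me3 and H3K4me1 (47.4%) and 360 of 2193 with H3K4me1 only (16.4%). For comparison, 80.6% of regions with H3K27ac only had an NMR35 H3K27ac peak. JH171103.1:1886270-1887587 led the 1428 regions with H3K4me3 only, with folds of 66.4, 39.1, 9.54 and 31.0 in NMR31, NMR32, NMR34 and NMR35. It carried an H3K27ac peak of fold 8.10 in NMR35. JH167709.1:215677-216064 and JH171970.1:670550-671694 carried NMR35 H3K27ac peaks of 3.50 and 6.43, and the span of the latter also held H3K4me1 peaks of 4.50 in NMR30 and 5.08 in NMR32. Only 38 regions had H3K4me3 and H3K4me1 without H3K27ac in both hearts. In the leading one, JH172627.1:3125303-3126266, H3K4me3 folds were 14.5, 8.97, 5.74 and 7.35 and H3K4me1 folds 5.94, 7.55 and 5.73, with an H3K27ac peak of 5.97 in NMR35. JH167515.1:1047558-1048442 had one of 4.00 and JH172486.1:1443166-1443988 had none.

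Compared with the liver of the same species, H3K27ac peaks of the heart carried H3K4me1 less often. The heart shares were 26.9% in NMR31 and 17.6% in NMR32, and the 5 liver shares ran from 53.6% to 62.1% with a median of 57.5%, so the groups did not overlap. The difference of −35.43 points had p = 0.0952, the smallest that 2 against 5 values allow in a two-sided exact permutation test (adjusted p = 0.571 over 12 comparisons). NMR31 and NMR32 gave both a heart and a liver value, and this test does not pair them. The heart H3K4me1 lists of these animals held 42957 and 63590 peaks and the liver lists 132759 to 180145. The NMR30 heart H3K4me1 list, with 110851 peaks, lay on 36.2% to 37.8% of the H3K27ac peaks of other hearts. With equal numbers of peaks the difference shrank to −7.97 points, still without overlap. H3K4me1 peaks of the heart carried H3K27ac more often, at 45.5% and 47.7% against 28.8% to 44.0% in liver (10.1 points, exact permutation p = 0.0952, adjusted p = 0.571), but with equal numbers the difference was −1.91 points.

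The other 4 shares overlapped between heart and liver, and their tests were not paired by animal either. H3K4me3 peaks carried H3K27ac in 65.4% ± 15.7 in heart (n = 3) and 55.5% ± 27.2 in liver (n = 5), a difference of 9.90 points (exact permutation p = 0.75, adjusted p = 0.857). The liver mean holds the H3K4me3 list of NMR30, with 253457 peaks and a share of 8.78%, and without NMR30 the difference was −1.78 points. In vl libraries it was 32.4 points, with liver values only from NMR30 (8.78%) and NMR31 (74.9%). H3K4me3 carried H3K4me1 in 13.8% ± 9.18 in heart (n = 2) and 34.8% ± 18.0 in liver (−20.98 points, exact p = 0.286). The NMR30 liver share was 6.12%, and the other livers ran from 32.4% to 54.7%, above both hearts. Without NMR30 the difference was −28.14 points. It was −3.21 points with equal numbers of peaks and −8.15 in vl libraries, where the liver values were again those of NMR30 and NMR31. H3K27ac carried H3K4me3 in 21.3% ± 2.02 and 23.9% ± 2.66 (−2.63 points, exact p = 0.214, from −4.91 to −0.688 over the alternatives), and H3K4me1 carried H3K4me3 in 6.81% ± 3.38 and 9.98% ± 1.27 (−3.18 points, exact p = 0.19, from −6.04 to −0.579 over the alternatives).

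Against the heart of the Damaraland mole-rat the groups overlapped in all 6 shares. H3K4me3 peaks carried H3K27ac in 66.2% ± 17.2 of cases there (n = 5), from 47.4% to 85.6%, a difference of −0.75 points (exact permutation p = 0.857, adjusted p = 0.857). The largest difference was again in H3K27ac with H3K4me1, which was 35.8% ± 11.9 in the Damaraland mole-rat, from 15.9% to 46.3% (−13.58 points, exact p = 0.286, adjusted p = 0.571). It was −3.61 points with equal numbers of peaks and −8.02 in vl libraries. The other 4 differences ran from −9.08 to 6.27 points, with exact permutation p-values from 0.476 to 0.786. Median distances between overlapping H3K4me3 and H3K27ac summits were 66 to 118 bases in the Damaraland heart and 61 to 108 bases in naked mole-rat liver, against 74 to 79 bases in naked mole-rat heart.

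**Figure D5:**
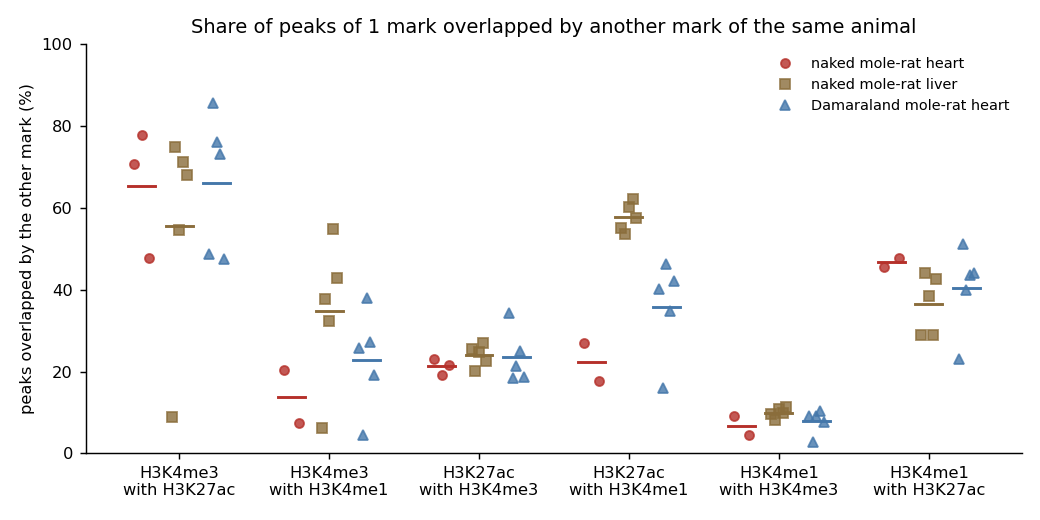
Share of peaks of 1 mark overlapped by a peak of another mark in the same animal, for naked mole-rat heart (red circles), naked mole-rat liver (brown squares) and Damaraland mole-rat heart (blue triangles). Each point is an animal and each line a group mean. The 2 naked mole-rat hearts lie below all 5 livers in H3K27ac with H3K4me1 (17.6% and 26.9% against 53.6% to 62.1%) and above them in H3K4me1 with H3K27ac.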

How the data were processed

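Peak lists of naked mole-rat heart, naked mole-rat liver and Damaraland mole-rat heart were used, 40 in all. Peaks were called with MACS2, per the submitters' processing notes, 1 list per library against an input. The aligner, all versions and settings: not given in the sources used here. HetGla_1.0 and DMR_v1.0 were the builds, as file names state. Fold is the authors' deposited ratio of signal to background, on a linear scale, used to rank peaks within a list. The deposited score of the authors' caller restates its q and was not used. The deposited −log10 p-values and −log10 q-values are the caller's own, with a lowest −log10 q of 1.30 in the heart lists. Depth is unknown, so the number of peaks depends on it.

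Overlap, distance and width were computed with SciPy 1.17.1, pandas 2.3.3 and NumPy 2.4.6 under Python 3.11.15, figures with Matplotlib 3.10.9, and functions were tested on simulated data. The value of an animal was compared by two-sided exact permutation or sign-flip tests, adjusted by Benjamini-Hochberg within 21 heart comparisons and 12 with other groups, at 0.05. The permutation tests treated all values as separate. Within the heart and against liver, values of the same animal stood on both sides, and only the replicate block paired them. The labels name separate animals, and same-numbered lists pair by animal. Regions were named as the 3 highest scores of each of 7 classes. Alternatives were an overlap of at least 1 base, summit inside, lists of all pairs of animals, −log10 q of at least 4, equal numbers of peaks, scaffolds reaching 1 Mb, merging within 1000 bases, the replicate block, vl libraries, and leaving out each animal. Members and lists were chosen with earlier results of these data known, and the classes by fold around H3K4me3 summits, the counts over all eligible regions and the other-heart shares without NMR34 were added after seeing the data.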

Additional observations from a re-analysis of the deposited data

Results flagged for a closer look

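Over 40 groups of 4 to 10 values, 3 held a value further from its neighbours than Dixon's 95% limit allows, and chance flags about 1 in 20 groups. None was a naked mole-rat heart list, but shares, fold ratios and summit distances of this heart had only 2 or 3 values and could not be flagged. The median distance between overlapping H3K4me3 and H3K27ac summits was 118 bases in the Damaraland heart of DMR4, against 66 bases at the low end of that group. In naked mole-rat liver, NMR30 stood apart with a median of 108 bases from H3K4me3 to H3K27ac and of 191 bases from H3K4me3 to H3K4me1. Its H3K4me3 list is the one with 253457 peaks.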

How the results depend on the processing

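Of 397 alternative values of 33 results, 359 kept their direction and 38 turned it, and no adjusted p fell under 0.05. The lowest was 0.571 as reported and 0.0857 over the alternatives, the latter with lists of all pairs of animals, in which values share lists. 20 results never turned, among them the differences in summit distance and the fold of H3K4me3 and H3K27ac with each other. The replicate block, pairing lists of the same animal as the labels give them, could make no call, since 2 or 3 pairs allow no p below 0.5 or 0.25 in the exact test; it turned the 3 width differences and 1 share against liver. Widths turned most (log2): H3K27ac against H3K4me3 was −0.0329 with the block, −0.13 in vl libraries and −0.13 to 0.33 without an animal; H3K4me1 against H3K4me3 was −0.016 with merged peaks, −0.60 with the block, −0.24 in vl libraries and −0.20 (NMR35) to 0.43 without an animal; H3K27ac against H3K4me1 was 0.0151 at the stricter q, 0.86 with equal numbers, 0.97 with merged peaks, 0.12 with the block and in vl libraries, and −0.15 to 0.0719 without an animal (0.0007 without NMR30). In points, H3K27ac with H3K4me3 less with H3K4me1 was 4.70 by summit, 12.4 at the stricter q, 29.6 with equal numbers and −4.53 to 2.75 without an animal (2.75 without NMR31). H3K4me3 with H3K4me1 less the reverse, 6.996 as reported, was −0.86, −1.02 and −0.0715 under the same 3 settings. By summit, fold of H3K4me3 was −1.27 with against without H3K4me1 and −0.11 with 3 marks against 1. Against liver, H3K4me3 with H3K27ac was −0.42 with the block and −1.78 (NMR30) to 21.9 without an animal (32.4 in vl libraries, with its sign kept), and H3K4me1 with H3K27ac −1.91 with equal numbers. Against the Damaraland heart, H3K4me3 with H3K27ac was 0.44 at the stricter q, 0.68 with equal numbers, 5.08 in vl libraries and −6.99 to 8.08 without an animal; H3K27ac with H3K4me3 was 0.42 with equal numbers and −3.57 to 0.40 (DMR1) without an animal; H3K4me1 with H3K4me3 was −3.45 to 1.33 (NMR32) without an animal, and H3K4me1 with H3K27ac −2.37 with equal numbers. The causes of these turns were not tested. Tests rest on 2 to 5 animals a group, and the depth behind each list is unknown.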
